A study of Homo sapiens with 28 samples.

Results

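The 6 matrix and matrix-cleaving genes described here are the matrix genes COL14A1, TGFBI, OLFML3 and CPXM1 and the enzyme genes MMP9 and HPSE. They are 6 of the 11676 genes measured, and every probe set annotated to them was used, 7 in all. They had been chosen because their signal was higher after treatment on average or in some lines, so their changes are given as a description, with no test. The values come from Affymetrix Human Genome U133 Plus 2.0 arrays of the established cell lines THP1, NOMO1, SHI1, MOLM13, GDM1, SKM1 and SKNO1, 7 in all, which the labels describe as acute myeloid leukaemia (AML). Cells were cultured for 96 hours in 1 µM GSK3484862, an inhibitor of the DNA methyltransferase DNMT1, or in 0.1% DMSO, the vehicle. The design names biological duplicates, so there were 14 groups of 2 arrays, 28 in all. Every p-value measures only the spread between such duplicates, except those said to take lines as units, which use the spread between lines. No other agent or genetic change is named in the labels, and each line stands for a single leukaemia.

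The extracellular matrix is the network of collagens, glycoproteins and proteoglycans that cells secrete around themselves. Collagens and glycoproteins build it, integrins and other receptors bind cells to it, and proteases and heparanase cut it, which also frees growth factors held by heparan sulfate. Leukaemic and normal blood cells make few collagens but carry matrix enzymes, which myeloid cells use to leave vessels and move through tissue. DNMT1 copies CpG methylation onto the new strand after each DNA replication.

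Because CpG dinucleotides are the substrate of DNMT1, the bases just before the start of the genes are shown first. Sequences from the RefSeq promoter table (GRCh38) are shown for 4 of the 6 genes. None is shown for COL14A1 or MMP9, so nothing is said here of their CpGs. The 250 bases before the start are printed 5′ to 3′ on the strand of the gene, with each CpG in capitals. They lie at chr5:136028738-136028987 (plus strand) for TGFBI, chr20:2800628-2800877 (minus strand) for CPXM1, chr1:113979224-113979473 (plus strand) for OLFML3, and chr4:83334849-83335098 (minus strand) for HPSE. Of the 3 starts listed for HPSE, the one shown has the most CpGs in the whole window of 300 bases.
TGFBI: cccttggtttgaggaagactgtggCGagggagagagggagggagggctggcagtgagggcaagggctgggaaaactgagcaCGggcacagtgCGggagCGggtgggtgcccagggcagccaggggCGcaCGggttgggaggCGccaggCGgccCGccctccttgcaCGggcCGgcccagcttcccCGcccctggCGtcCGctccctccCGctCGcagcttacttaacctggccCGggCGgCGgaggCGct
CPXM1: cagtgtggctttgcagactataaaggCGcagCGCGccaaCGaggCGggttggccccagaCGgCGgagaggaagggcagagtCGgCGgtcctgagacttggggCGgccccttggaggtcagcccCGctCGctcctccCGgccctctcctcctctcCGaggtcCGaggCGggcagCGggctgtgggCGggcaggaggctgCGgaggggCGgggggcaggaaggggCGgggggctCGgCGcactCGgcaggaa
OLFML3: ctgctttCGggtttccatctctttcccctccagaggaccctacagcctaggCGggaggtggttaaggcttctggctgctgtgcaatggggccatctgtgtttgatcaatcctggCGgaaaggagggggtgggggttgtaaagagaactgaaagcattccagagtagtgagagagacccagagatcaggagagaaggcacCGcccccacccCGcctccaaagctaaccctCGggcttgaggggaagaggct
HPSE: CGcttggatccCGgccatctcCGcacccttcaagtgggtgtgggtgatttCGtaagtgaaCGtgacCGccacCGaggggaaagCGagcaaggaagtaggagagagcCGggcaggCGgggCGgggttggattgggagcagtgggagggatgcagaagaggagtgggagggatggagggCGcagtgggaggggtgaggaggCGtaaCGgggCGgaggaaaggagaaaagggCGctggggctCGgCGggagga
These 4 stretches hold 20, 24, 6 and 18 CpGs. The motif searched was CG, which reads the same on both strands, so that 1 count covers both. In the whole window of 300 bases, from 250 before to 50 after the start, TGFBI had 27 CpGs, CPXM1 31, OLFML3 7 and HPSE 23. Of all 35116 windows in the table, 28.2% held at least as many CpGs as that of TGFBI, 20.7% as many as CPXM1, 35.8% as many as HPSE and 63.2% as many as OLFML3, where the median window held 14. OLFML3 thus had the fewest CpGs of the 4 genes, and the 3 windows of HPSE had 16, 23 and 22, or 11, 18 and 19 in the 250 bases before the start. DNA methylation itself was not analysed here.

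All values are log2 probe set signals, so a difference of 1 is a doubling, and levels of different probe sets are not compared. They ran from 2.13, a floor that occurs on all 28 arrays and below which nothing has an order, to 16.81. Where a DMSO array lay within 1 of the floor, a limit set after the values were seen, the fold is given as "at least", since the signal there may be background. Array medians lay between 8.33 and 8.51. Across genes, which are no independent replicates, the correlation of duplicates was 0.990 to 0.998, and a single array had an SD of 0.161 to 0.305, with treated SKM1 at the upper end. The blood cell label of the lines was checked with the leukocyte gene PTPRC (11.23 to 13.52), MYB (12.77 to 13.87) and the myeloid factor gene SPI1 (8.85 to 10.48), each well above the floor on every array. These are 3 of 11 haematopoietic markers measured. Others of that list were low in some lines, as KIT (lowest array 3.14), FLT3 (2.73) and CD38 (2.49). Of 13 fibroblast markers only COL1A1 (8.57 to 10.15) and ACTA2 (3.97 to 10.17) were measured, and both were above the floor on every array. Their summed level spanned 13.4 to 19.7 over the DMSO arrays and 13.9 to 19.4 over the treated arrays. In bulk RNA, fewer cells of a type and less RNA per cell cannot be told apart.

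**Figure D1:**
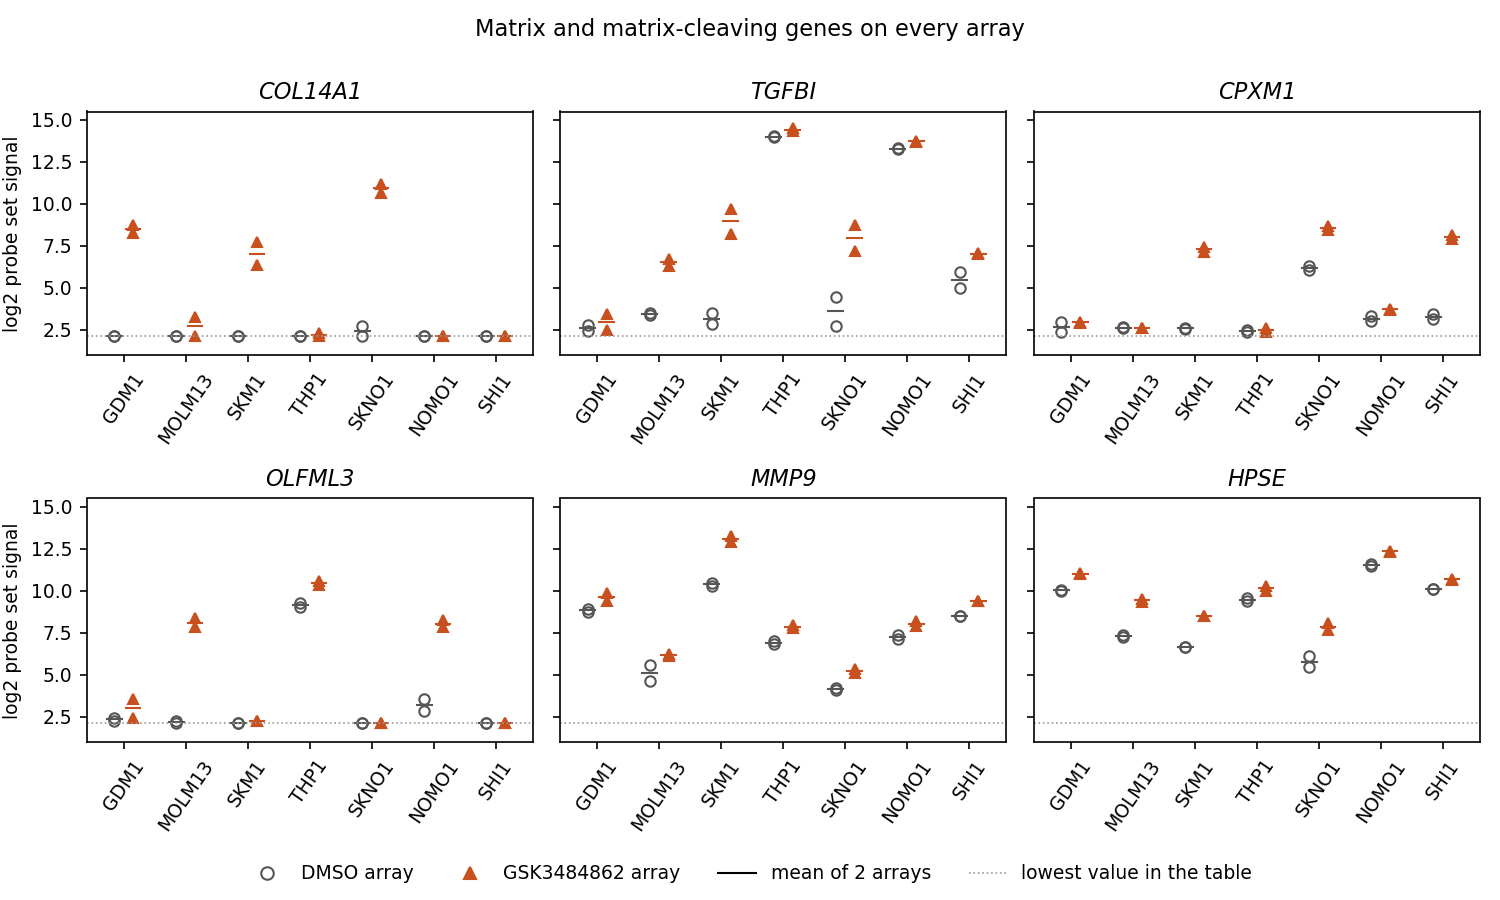
Log2 probe set signal (y axis) of each of the 6 genes on every array, by cell line (x axis), with DMSO arrays as circles, GSK3484862 arrays as triangles, the mean of 2 arrays as a bar, and the lowest value of the table as a dotted line. Treated COL14A1 leaves the floor clearly in GDM1, SKM1 and SKNO1, while MMP9 and HPSE are above their DMSO arrays in all 7 lines.

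COL14A1 encodes a collagen that sits on the surface of collagen fibrils, and of the 6 genes it had the largest measured change in a single line. Its probe set 212865_s_at lay at or near the floor on the DMSO arrays of every line, with 13 of 14 arrays between 2.13 and 2.14 and 1 SKNO1 array at 2.73. After treatment 3 lines stood far above it. In SKNO1 the DMSO arrays were at 2.14 and 2.73 and the treated arrays at 11.18 and 10.65, a change of 8.48 ± 0.35 (SE of the limma fit, n = 2 arrays per group here and below), or at least 358-fold. No other gene of the 11676 had a larger measured increase in SKNO1, though a change that starts at the floor is a bound. In GDM1 both DMSO arrays were at 2.14 and the treated arrays at 8.28 and 8.75, a change of at least 6.38, or at least 83.1-fold. The SKM1 pair went from 2.14 and 2.14 to 7.71 and 6.39, at least 4.91 or at least 30.1-fold. In these 3 lines the treated and DMSO arrays were far apart.

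The other 4 lines gave little or no COL14A1 signal. In MOLM13 1 treated array was at 3.27 and the other at 2.14, beside DMSO arrays at 2.13 and 2.13, so that the change was 1.14 on 1 array and 0.01 on the other. In THP1 the treated arrays were at 2.14 and 2.30 beside DMSO arrays at 2.14 and 2.14, and in NOMO1 and SHI1 all 8 arrays were between 2.13 and 2.15. Values so close to the floor have no order. The average over the 7 lines, 2.92 ± 0.13, was therefore carried by 3 lines and was 1.99 without SKNO1. Before treatment the line means spanned 0.30, with no neighbours apart by more than 2 SE, and after treatment they spanned 8.78.

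TGFBI encodes a secreted matrix protein with fasciclin domains that binds collagens and integrins and is named for its induction by TGF-beta. Its probe set 201506_at split the untreated lines widely. THP1 (mean 14.01) and NOMO1 (13.29) were highest and did not differ beyond their spread, SHI1 (5.49) followed, and SKNO1 (3.60), MOLM13 (3.45), SKM1 (3.16) and GDM1 (2.63) formed a low group without separable neighbours. A difference is called beyond the spread here when it exceeds 2 SE.

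The larger TGFBI changes lay in lines that started low. In SKM1 the DMSO arrays were at 3.48 and 2.84 and the treated arrays at 9.69 and 8.23, a change of 5.80 ± 0.56, or at least 55.7-fold. SKNO1 had DMSO arrays at 2.74 and 4.46 and treated arrays at 7.18 and 8.74, a change of 4.36 or at least 20.6-fold, with duplicates that differed by 1.72 and 1.56. MOLM13 went from 3.42 and 3.48 to 6.74 and 6.32, a change of 3.08 or 8.46-fold. SHI1, with an intermediate start at 5.97 and 5.02, had treated arrays at 7.06 and 7.04, a change of 1.56 or 2.94-fold. In these 4 lines both treated arrays were above both DMSO arrays.

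The lines with a high TGFBI signal moved little. THP1 had DMSO arrays at 14.04 and 13.98 and treated arrays at 14.49 and 14.32, a change of 0.39. NOMO1 went from 13.32 and 13.26 to 13.71 and 13.72, a change of 0.43. In both lines the treated arrays were above the DMSO arrays, so that 6 lines in all were separated. The differences were larger than the gaps between duplicates, at most 0.06 with DMSO and 0.17 after treatment, but smaller than the SE of 0.56, which all lines share, those with wide duplicates such as SKNO1 included. A low start was not always followed by a large change, as GDM1 had DMSO arrays at 2.81 and 2.46 and treated arrays at 2.52 and 3.47, which overlap (change 0.36). The average was 2.28 ± 0.21, and 1.70 without SKM1. The span of the line means stayed about the same, 11.38 before and 11.42 after treatment.

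OLFML3 encodes a secreted glycoprotein with an olfactomedin domain. Untreated THP1 (mean 9.17) and NOMO1 (3.20) stood above the other 5 lines, which lay between 2.13 and 2.42 on every array of probe set 218162_at. The largest changes were in MOLM13 and NOMO1. In MOLM13 the DMSO arrays were at 2.27 and 2.15 and the treated arrays at 8.37 and 7.86, a change of 5.91 ± 0.27, or at least 60.0-fold. NOMO1 went from 2.87 and 3.54 to 7.83 and 8.29, a change of 4.86 or at least 29.0-fold. THP1, already high, went from 9.05 and 9.29 to 10.38 and 10.62, a change of 1.33 or 2.52-fold. In each of these lines the treated arrays were clear of the DMSO arrays.

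In GDM1 the treated OLFML3 arrays were 2.46 and 3.58 beside DMSO arrays at 2.42 and 2.27, of which the first was barely higher. In SKM1 the treated arrays were both at 2.27 beside DMSO arrays at 2.13 and 2.15, and SKNO1 and SHI1 stayed between 2.13 and 2.15 on all 8 arrays, so that nothing can be read there. SKM1 and SKNO1, where COL14A1 and TGFBI both had large changes, were thus at the floor for OLFML3. The average was 1.84 ± 0.10 and was 1.16 without MOLM13.

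CPXM1 encodes a secreted protein of the metallocarboxypeptidase family that lacks residues needed for catalysis. Without treatment only SKNO1 (mean 6.16) had a clear signal on probe set 227860_at, followed by SHI1 (3.28) and NOMO1 (3.18), which did not differ beyond their spread, and by GDM1, MOLM13, SKM1 and THP1 between 2.45 and 2.69. In SHI1 the DMSO arrays were at 3.43 and 3.13 and the treated arrays at 8.13 and 7.92, a change of 4.75 ± 0.17, or at least 26.9-fold. SKM1 was close to it, from 2.56 and 2.63 to 7.14 and 7.44, a change of 4.69 or at least 25.9-fold. SKNO1 went from 6.29 and 6.04 to 8.68 and 8.47, a change of 2.41 or 5.30-fold. In all 3 lines the duplicates were within 0.31 of each other and far from those of the other treatment.

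In the other lines the CPXM1 difference was small. NOMO1 had DMSO arrays at 3.31 and 3.05 and treated arrays at 3.73 and 3.70, a change of 0.54. The GDM1 arrays overlapped (2.99 and 2.39 with DMSO, 2.99 and 2.92 after treatment), as did those of THP1 (2.50 and 2.39, then 2.39 and 2.63) and MOLM13 (2.65 and 2.63, then 2.63 and 2.63). The average was 1.81 ± 0.06, and 1.33 without SHI1 or without SKM1.

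MMP9 encodes gelatinase B, a metalloproteinase that cleaves denatured and type IV collagen and is stored in neutrophil granules. Unlike the 4 matrix genes it had a signal well above the floor in every untreated line. SKM1 was highest (mean 10.41), followed by GDM1 (8.84) and SHI1 (8.51), then NOMO1 (7.26) and THP1 (6.92), then MOLM13 (5.12) and SKNO1 (4.16). GDM1 and SHI1 did not differ beyond the spread, nor did NOMO1 and THP1, while the other neighbours did.

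The treated MMP9 arrays were above the DMSO arrays in all 7 lines, by a similar amount in 6 of them. SKM1, the line that began highest, stood out, with 10.31 and 10.50 before and 12.92 and 13.26 after, a change of 2.68 ± 0.23, or 6.42-fold. SKNO1, the lowest line, went from 4.08 and 4.24 to 5.38 and 5.11 (change 1.09). MOLM13 went from 5.58 and 4.66 to 6.23 and 6.11 (change 1.05), with DMSO duplicates 0.92 apart, and its change ran from 0.59 to 1.51 with 1 array left out, the lowest without DMSO replicate 2.

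The other 4 lines had MMP9 changes of 0.80 to 0.96, and those of SKNO1 and MOLM13 were within 2 SE of them. THP1 went from 7.02 and 6.82 to 7.96 and 7.81 (0.96), and SHI1 from 8.53 and 8.48 to 9.42 and 9.39 (0.90). In GDM1 the arrays were at 8.95 and 8.72 before and 9.39 and 9.88 after (0.80), and in NOMO1 at 7.16 and 7.37 before and 7.90 and 8.22 after (0.80). The arrays did not overlap in any of them. The average was 1.18 ± 0.09, and 0.93 without SKM1. The lines stayed far apart, with means that spanned 6.25 before and 7.84 after treatment.

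HPSE encodes heparanase, the endoglucuronidase that cuts heparan sulfate chains in the matrix and on cell surfaces. It has 2 probe sets, and the brighter, 219403_s_at, was high in untreated NOMO1 (mean 11.54), SHI1 (10.12), GDM1 (10.03) and THP1 (9.48) and lower in MOLM13 (7.30), SKM1 (6.66) and SKNO1 (5.78). Only SHI1 and GDM1 did not differ beyond their spread. The 3 lines with the lowest start had the largest changes. MOLM13 went from 7.24 and 7.36 to 9.37 and 9.53, a change of 2.15 ± 0.16, or 4.44-fold. SKNO1 went from 6.10 and 5.47 to 8.09 and 7.68 (2.10), and SKM1 from 6.64 and 6.69 to 8.51 and 8.49 (1.83). Both treated arrays were above both DMSO arrays in each.

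The 4 lines with more HPSE to start with changed less, again without overlap. GDM1 went from 10.04 and 10.02 to 11.00 and 11.06 (1.00), and NOMO1 from 11.49 and 11.59 to 12.34 and 12.36 (0.81). THP1 went from 9.55 and 9.42 to 10.28 and 10.01 (0.67), and SHI1 from 10.13 and 10.10 to 10.72 and 10.65 (0.57). The line means therefore spanned less after treatment, 4.47 in place of 5.76, the reverse of COL14A1, CPXM1, OLFML3 and MMP9.

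The second HPSE probe set, 222881_at, gave the same direction in every line, with both treated arrays above both DMSO arrays in all 7. Its changes were 1.25 in GDM1, 1.55 in MOLM13, 1.67 in SKM1, 1.29 in THP1, 2.22 in SKNO1, 1.02 in NOMO1 and 0.83 in SHI1, each with an SE of 0.42. Averages were 1.30 ± 0.06 for the brighter and 1.40 ± 0.16 for the second probe set. SKNO1 had the largest change and SHI1 the smallest on the second probe set, where MOLM13 and SHI1 were the extremes on the brighter. The DMSO arrays of SKNO1 were 2.16 apart on it, at 5.25 and 3.09. GDM1 (9.49) was the highest untreated line on this probe set, and NOMO1 (8.14) and SHI1 (7.58) followed.

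**Figure D2:**
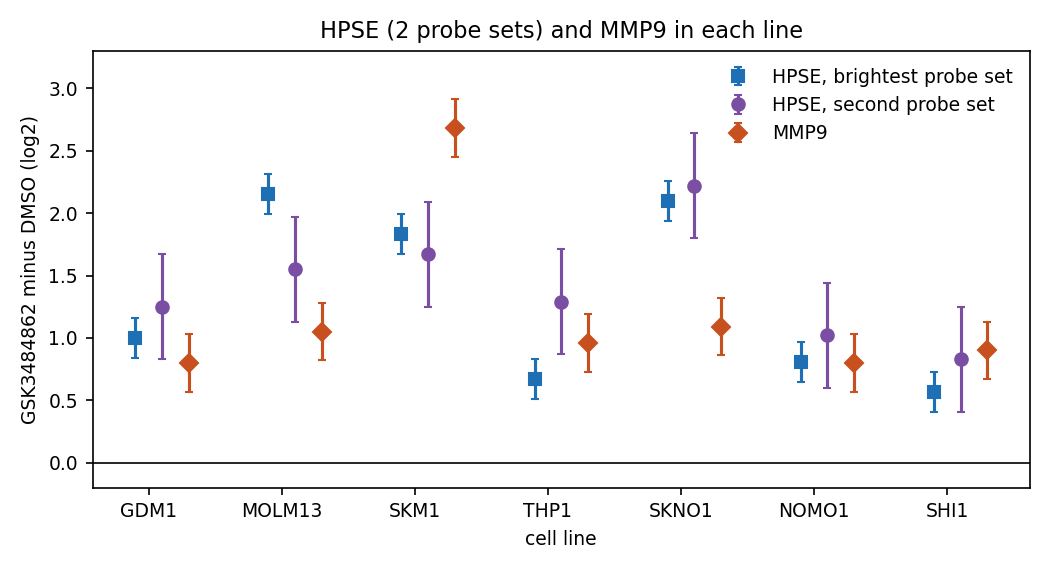
GSK3484862 minus DMSO in log2 (y axis) by cell line (x axis) for both HPSE probe sets and MMP9, with points at the difference of 2-array means and bars of 1 SE from the limma fit. Every point is above 0, and the SKM1 point of MMP9 at 2.68 stands above those of the other lines.

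Read by line, the 6 genes differed in how many and which were higher. All 6 were higher on both treated arrays in SKM1, 5 in MOLM13, SKNO1 and NOMO1, and 4 in GDM1, THP1 and SHI1. These counts include the small differences near the floor given above, and the same separation was met by 25.5% of all 11676 genes in SKM1, 30.0% in MOLM13, 19.3% in SKNO1, 21.1% in NOMO1, 28.2% in GDM1, 26.2% in THP1 and 29.1% in SHI1. Only MMP9 and HPSE were separated in all 7 lines, as were 1.09% of all genes, 127 in number. The genes were picked on these same values, so nothing is read from the shares.

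By size, SKM1 again led. The median change over the 6 genes was 3.69 in SKM1, 2.25 in SKNO1, 1.60 in MOLM13, 0.74 in GDM1, 0.73 in SHI1, 0.67 in NOMO1 and 0.53 in THP1, where the median of all genes lay between -0.03 and 0.00. An increase of 4 or more was met by COL14A1, TGFBI and CPXM1 in SKM1 and by COL14A1 and TGFBI in SKNO1, out of 46 and 10 genes of that size in those lines. A single gene of the set reached it in GDM1 (COL14A1), MOLM13 and NOMO1 (OLFML3) and SHI1 (CPXM1), out of 22, 36, 8 and 5, and none in THP1, out of 6. The rank of the largest change of the set among all genes was 1 in SKNO1, 3 in GDM1 and SHI1, 4 in NOMO1, 12 in MOLM13, 13 in SKM1 and 126 in THP1. As the genes were picked on these same values, nothing is read from the ranks or from the counts above. In the 6 lines other than THP1 the gene ranked was COL14A1 in 2, OLFML3 in 2, TGFBI in 1 and CPXM1 in 1.

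**Figure D3:**
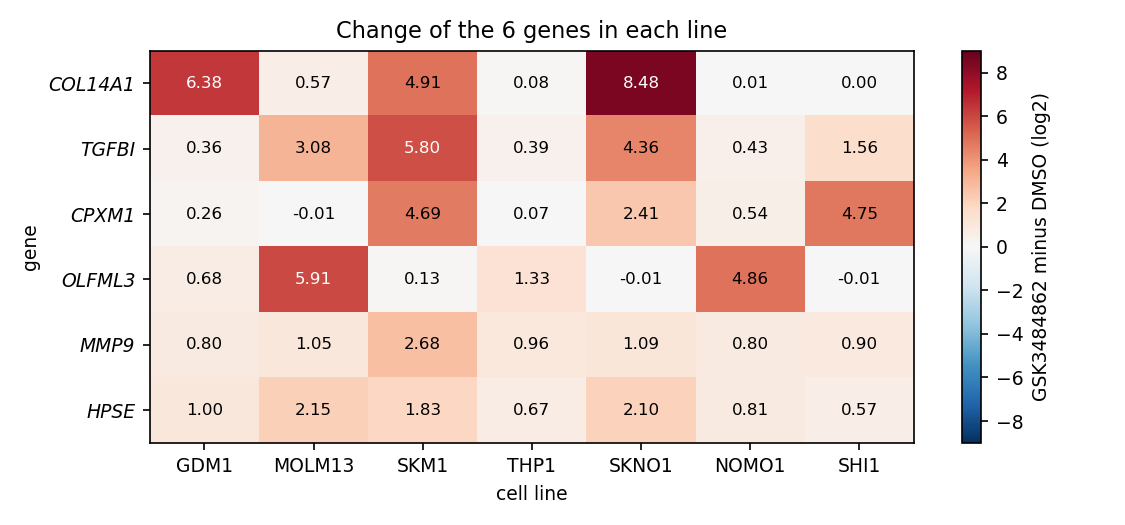
GSK3484862 minus DMSO in log2 (colour and printed value) for the 6 genes (y axis) in the 7 cell lines (x axis), each value a difference of 2-array means. The 4 matrix genes have values from about 0 to 8.48 in different lines, while MMP9 and HPSE lie between 0.57 and 2.68 in all of them.

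Several markers of mature myeloid cells also moved, by amounts that differed between the lines. Of 17 monocyte and macrophage markers 8 were measured, and 7 rose and 0 fell on average, where 23.2% of all genes were called up and 28.6% down. Their median change was 1.25 in MOLM13, 0.94 in SKM1, 0.69 in THP1, 0.26 in SHI1, 0.09 in GDM1 and NOMO1 and 0.05 in SKNO1. The summed level of the 8 monocyte markers ran from 31.4 to 82.4 over the DMSO arrays and from 36.2 to 85.2 over the treated arrays. A low median hides single members, of which some are given here after their values were seen. In GDM1 S100A8, from the floor, and S100A9, from 2.23, had changes of 8.24 and 4.27, but ITGAM had -0.57 and the others 0.00 to 0.41. In SKNO1 MRC1 and ITGAM had 2.22 and 1.62, but S100A8 and S100A9 had -0.42 and -0.02 and the others -0.04 to 0.55. ITGAM did not pass in SKNO1 by limma (adjusted p = 0.0532). GDM1 and SKNO1 had the largest COL14A1 changes.

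Of 15 neutrophil granule genes 9 were measured, and 5 rose and 0 fell on average, read against the same shares of all genes. Their median change was 0.49 in MOLM13, 0.37 in SHI1, 0.36 in NOMO1, 0.02 in GDM1, 0.00 in SKM1 and THP1 and -0.08 in SKNO1. Their summed level ran from 44.1 to 85.3 over the DMSO arrays and from 40.5 to 91.8 over the treated arrays. In SKM1, the line with the largest MMP9 change, 2 were called up and 0 down, where 14.1% and 14% of all genes were. CEACAM6, CAMP and ARG1 had changes of 4.59, 2.41 and 2.30 there, of which not all passed, while the other 6 lay between -0.39 and 0.00. The part of both marker lists in the changes of the 6 genes was not tested.

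For each gene the 3 genes with the most similar level over the 28 arrays were taken by Pearson's r, which is a description, since arrays of a line share the line. FCER1A, a subunit gene of the IgE receptor, was closest to COL14A1 (r = 0.841), ahead of LOC100506405 (0.839) and DNAJC28 (0.795). FCER1A changed by 3.62 in GDM1, 2.71 in SKNO1 and 0.74 in SKM1. OLFML3 was closest to COL4A1, a basement membrane collagen gene (0.910), FILIP1 (0.900) and PRSS12 (0.880), and COL4A1 changed by 1.71 in NOMO1 and 1.11 in MOLM13, the lines with the largest OLFML3 changes. CPXM1 was closest to KCNH2 (0.861), IKZF2 (0.830) and FIBCD1 (0.809). KCNH2, a potassium channel gene, changed by 2.99 in SHI1 and 2.34 in SKM1, as CPXM1 did, but by -0.92 in SKNO1.

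TGFBI was closest to CAPZA1 (0.918), ZNF354A (0.910) and EEIG2 (0.902), none of which changed by more than 0.53 in any line. MMP9 was closest to PCGF2 (0.930), NHSL2 (0.929) and RASSF5 (0.921), and HPSE to STX5 (0.901), TRPC4AP (0.891) and NINJ1 (0.885). In SKM1, where MMP9 changed by 2.68, its 3 closest genes changed by 0.10, 0.37 and 0.66, but in THP1, where MMP9 changed by 0.96, PCGF2 changed by 0.88 and NHSL2 by 1.02. NINJ1 changed by 1.18 in MOLM13, the line with the largest HPSE change, and STX5 and TRPC4AP by 0.32 each.

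The next question was how the rest of the matrix pathway moved. Of 435 further genes in 12 lists by role, 223 were measured. On the average of the 7 lines limma called 82 of them up (36.8%) and 31 down (13.9%) at an adjusted p under 0.05, where 23.2% of all genes were called up and 28.6% down. Their median change was 0.08, beside -0.02 for all genes. Taking the 7 lines as units, with an error from the spread between them, 7 were called up and 1 down, so these calls concern these lines. Counts over lists are descriptions, as no list was tested as a set, and leaving out any 1 array moved none of a list's counts by more than 2 genes. The rises and falls of each list below are to be read beside these shares of all genes.

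By line, the pathway genes called up were 37 in GDM1 (25 down), 61 in MOLM13 (12 down), 56 in SKM1 (28 down), 24 in THP1 (9 down), 20 in NOMO1 (14 down), 9 in SKNO1 (5 down) and 5 in SHI1 (1 down). The shares up and down of all genes were 13.3% and 20.5% in GDM1, 13.7% and 15.4% in MOLM13, 14.1% and 14% in SKM1, 5.4% and 8.3% in THP1, 4.21% and 7.55% in NOMO1, 2.96% and 3.12% in SKNO1 and 2.52% and 0.899% in SHI1. The pathway shares up were 16.6%, 27.4%, 25.1%, 10.8%, 8.97%, 4.04% and 2.24% in the same order. MOLM13 and SKM1 thus had the most calls up, while SHI1, where CPXM1 changed at least 26.9-fold, had few. The counts depend on single arrays. Leaving out 1 array gave 7 to 29 up in THP1 (lowest without treated replicate 1), 9 to 27 in NOMO1 (lowest without treated replicate 1) and 5 to 11 in SKNO1 (lowest without any of several arrays, of SKNO1 and of NOMO1). The counts down ran from 7 to 14 in MOLM13, 7 to 17 in NOMO1 and 1 to 7 in SKNO1 (each lowest without treated replicate 1 of that line), 5 to 10 in THP1 (lowest without DMSO replicate 2 or treated replicate 1) and 0 to 3 in SHI1 (0 without any of several arrays, also of other lines). Quantile normalization gave 19 down in MOLM13. With each line fitted on its own 4 arrays limma called 24 pathway genes up and 17 down in GDM1, 48 and 5 in MOLM13, 2 and 0 in SKM1 and 0 and 0 in the other 4 lines, where 2312 to 3616 of all genes had an unadjusted p under 0.05.

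**Figure D4:**
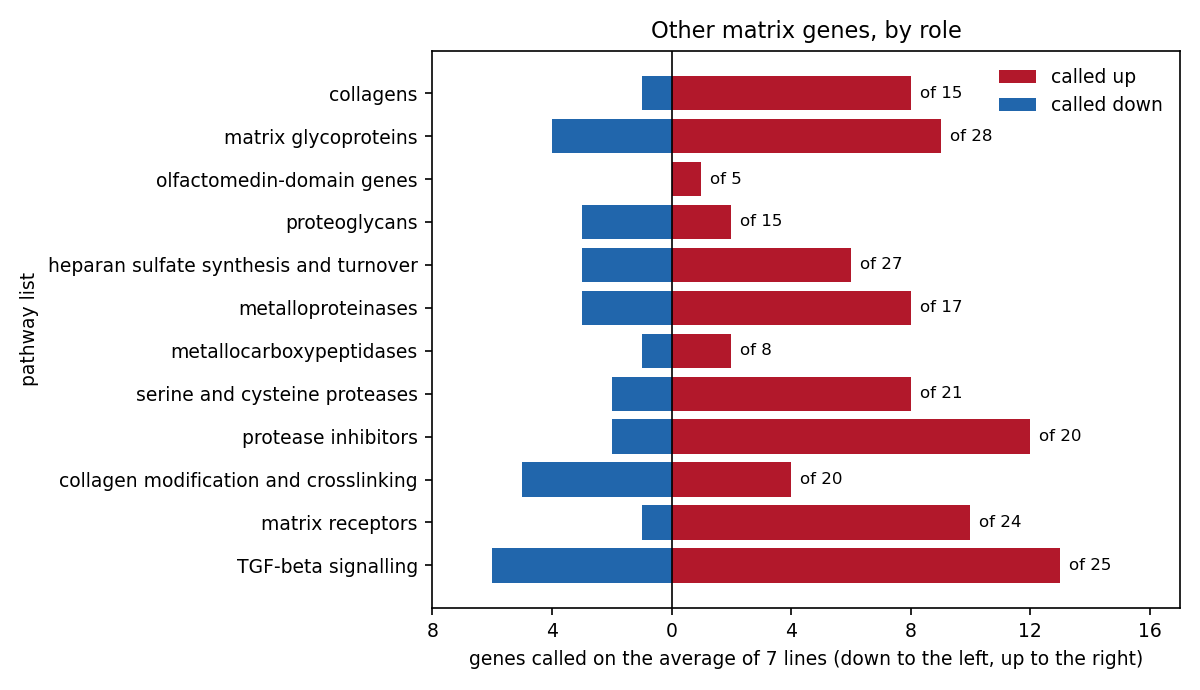
Number of genes of each pathway list (y axis) called up (right) or down (left) by limma on the average of the 7 lines (x axis), with the number measured beside each bar. Protease inhibitors have 12 of 20 called up and collagens 8 of 15, while collagen modification has 5 called down and 4 up.

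Among structural genes, 8 of 15 measured collagens rose and 1 fell. COL21A1, like COL14A1 a fibril-associated collagen, rose by 1.42 ± 0.17 (adjusted p = 3e-06), from a mean of 3.27 to 8.15 in SKM1, 4.46 to 7.89 in SHI1 and 2.58 to 4.21 in THP1. Its means were at the floor in the other 4 lines, and without SKM1 its average was 0.84. COL18A1, the precursor of endostatin, rose by 1.02 ± 0.06 (adjusted p = 1.95e-09), with calls in 5 lines, from 0.88 in SHI1 to 1.89 in MOLM13, but not in THP1 (-0.05) or SKNO1 (0.20), and it also passed with lines as units (adjusted p = 0.0453). COL9A3 rose by 0.62 ± 0.10 (adjusted p = 4.42e-05). Quantile normalization left 4 collagens up and a filter on dim genes 1. The single fall was absent without MOLM13, NOMO1, SKM1 or THP1 (0 down), and 2 fell without SKNO1.

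Of 28 matrix glycoproteins 9 rose and 4 fell. FBLN1, a basement membrane fibulin gene, had an average of 0.79 ± 0.11 that came from MOLM13, where its mean went from 2.56 to 7.77, and was 0.05 (adjusted p = 0.752) without that line. Over its 2 probe sets the average was 0.48. LTBP3, which holds latent TGF-beta in the matrix, rose by 0.71 ± 0.08, mainly in SKM1 (2.89), with 1 of its 2 probe sets in that direction. Its average was 0.35 without SKM1 and 0.33 over its 2 probe sets. SPARC, a collagen-binding matricellular gene, went from 4.04 to 7.99 in THP1 and fell by 0.76 in SKM1, so that its average of 0.41 ± 0.09 was -0.18 without THP1 and 0.01 over its 2 probe sets. SRPX fell by 0.88 ± 0.16 (adjusted p = 2.14e-04), from 6.94 to 3.75 in NOMO1, and by 0.50 without NOMO1. Quantile normalization left 5 glycoproteins up and the filter on dim genes 3, and 2 were down without SKNO1 or THP1.

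Of 5 olfactomedin-domain genes other than OLFML3, GLDN was called up and 0 fell. Its average of 0.64 ± 0.20 (adjusted p = 0.0131) came from SHI1, THP1 and SKM1 and did not pass without THP1 (0.50, adjusted p = 0.0534) or SHI1 (0.46, adjusted p = 0.0898), when 0 genes of the list were up. Of 15 proteoglycan genes 2 rose and 3 fell. HSPG2, which encodes the basement membrane proteoglycan perlecan, rose by 0.76 ± 0.24 (adjusted p = 0.0136), but its call needed both GDM1 (0.67 without it, adjusted p = 0.0589) and MOLM13 (0.52 without it, adjusted p = 0.131), and 1 gene was up without either. CSPG5 fell by 0.51 ± 0.13 (adjusted p = 0.00433), with -1.75 in THP1 and -1.53 in SKNO1, and without THP1 it did not pass (-0.31, adjusted p = 0.115) and 1 gene was down. The glypican gene GPC3 fell by 0.40 ± 0.09 (adjusted p = 0.00116).

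Heparan sulfate, the substrate of heparanase, is built by exostosins, trimmed by sulfatases outside the cell and degraded in lysosomes. Of 27 genes for these steps 6 rose and 3 fell, where 23.2% of all genes were called up and 28.6% down. The median change of the list was -0.04, so the list as a whole did not rise. SULF2, an extracellular sulfatase of heparan sulfate, rose by 1.40 ± 0.11 (adjusted p = 2.31e-08), from 3.66 to 7.92 in GDM1, 5.51 to 8.61 in SKM1 and 3.62 to 4.96 in MOLM13, and its average was 0.92 without GDM1. EXT1, a polymerase of the chain, rose by 0.94 ± 0.06 (adjusted p = 7.34e-09), from 4.34 to 8.90 in SKM1, with 0.34 without SKM1. IDS, a lysosomal sulfatase, rose by 0.59 ± 0.04 (adjusted p = 2.09e-08), with all 6 probe sets in that direction. The falls numbered 6 after quantile normalization, 5 with the mean of all probe sets and 5 without SHI1. MOLM13 had the most calls of this list, 10 up and 3 down, where 13.7% and 15.4% of all genes were called up and down. It also had the largest HPSE change on the brighter probe set, but a link was not tested.

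Among enzymes, 8 of 17 metalloproteinases other than MMP9 rose and 3 fell. ADAM8, a sheddase of leukocytes, rose by 1.23 ± 0.14 (adjusted p = 2.67e-06), with calls in SKM1 (3.54), MOLM13 (2.50) and GDM1 (2.14), with -0.50 in THP1. MMP14, a membrane-bound collagenase, rose by 0.76 ± 0.13 (adjusted p = 1.72e-04), from 3.65 to 6.10 in GDM1, and by 0.48 without GDM1. The mean of its 4 probe sets rose less (0.27, adjusted p = 0.00682 by limma). ADAMTS1 rose by 0.61 ± 0.12 (adjusted p = 3.59e-04), from 3.57 to 5.91 in MOLM13, and by 0.32 without MOLM13. The falls numbered 5 after quantile normalization and 1 without SKM1.

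Of 8 metallocarboxypeptidases other than CPXM1, 2 rose and 1 fell, all by small amounts. CPM rose by 0.30 ± 0.07 (adjusted p = 0.00117) on its brightest probe set, but the mean of its 5 probe sets did not pass (0.11, adjusted p = 0.154). CPD was at 0.09 ± 0.03 with 0.81 in MOLM13 and at -0.03 (adjusted p = 0.546) without it, when 1 gene was up. AGBL5 fell by 0.29 ± 0.05 (adjusted p = 3.02e-04). With the mean of all probe sets 1 gene was up and 2 were down.

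Of 21 genes in the list of serine and cysteine proteases 8 rose and 2 fell, with cathepsins as the 3 largest rises. CTSK, a collagen-degrading cathepsin, rose by 0.76 ± 0.11 (adjusted p = 2.98e-05), with calls in THP1 (1.31), SKM1 (1.32) and GDM1 (1.20). CTSD, an aspartic protease that the list also held, rose by 0.68 ± 0.06 (adjusted p = 7.76e-08) with calls in 5 lines. CTSK and CTSD also passed with lines as units (adjusted p = 0.0453 and 0.0441). CTSS was called up in 5 lines, up to 1.12 in SKM1, and fell by 0.31 in GDM1. The falls numbered 4 after quantile normalization, 1 with centred arrays, 5 without SHI1, and 1 without NOMO1, SKM1 or THP1.

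Of 20 protease inhibitors 12 rose, 2 fell and 6 did not pass. SERPINB9, an inhibitor of granzyme B, averaged 1.38 ± 0.31 (adjusted p = 0.00158), from 2.13, the floor, to 6.50 in GDM1, from 6.32 to 9.31 in NOMO1 and from the floor to 4.48 in SKM1. Its average was 0.88 (adjusted p = 0.0615) with GDM1 left out. SLPI, an inhibitor of neutrophil elastase, averaged 0.94 ± 0.15 (adjusted p = 7.53e-05), from 5.08 to 10.47 in MOLM13, and did not pass without MOLM13 (0.20, adjusted p = 0.359). CST7, a cystatin of leukocytes, rose by 0.92 ± 0.14 (adjusted p = 3.75e-05), called up in THP1 (2.05), SKM1 (1.85) and MOLM13 (1.07). Without NOMO1 0 genes of this list were down.

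Genes that modify and crosslink collagen gave 4 rises and 5 falls of 20. LOXL1, a lysyl oxidase family gene, went from 3.79 to 7.66 in SHI1 and from 2.67 to 4.15 in SKM1 (average 0.79 ± 0.16, adjusted p = 6.52e-04), and did not pass without SHI1 (0.28, adjusted p = 0.192), when 2 genes were up. The transglutaminase gene TGM3 rose by 0.79 ± 0.15 (adjusted p = 3.76e-04), from 2.40 to 5.10 in SKM1, and by 0.48 without SKM1. LOX fell, with an average of -0.42 ± 0.14 (adjusted p = 0.0167), a call lost without GDM1 (-0.37, adjusted p = 0.0663) or SKNO1 (-0.33, adjusted p = 0.0725). Without GDM1 1 gene of the list was down.

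Of 24 matrix receptor genes 10 rose and 1 fell. ITGAM and ITGAX, the alpha chains of myeloid integrins, averaged 1.03 ± 0.18 (adjusted p = 1.44e-04) and 0.82 ± 0.15 (adjusted p = 1.83e-04), with ITGAM largest in MOLM13 (2.72) and ITGAX in SKM1 (2.29). CD36, a scavenger receptor that binds thrombospondin and collagen, rose by 0.78 ± 0.12 (adjusted p = 3.83e-05), called up in SKM1 (2.21), MOLM13 (1.43) and THP1 (1.16). The fall was absent without GDM1 (0 down) and 3 genes fell without SKM1. In SKM1, the line with the largest TGFBI change, 8 of the 24 were called up and 0 down, where 14.1% and 14% of all genes were. MOLM13, with a smaller TGFBI change, also had 8 up, and 2 down, where 13.7% and 15.4% of all genes were.

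TGF-beta signalling, the pathway TGFBI is named for, gave 13 rises and 6 falls of 25. SKIL, a repressor of SMAD proteins, rose by 0.64 ± 0.07 (adjusted p = 1.7e-06), was called up in 5 lines and passed with lines as units (adjusted p = 0.0404). The inhibitory SMAD7 rose by 0.59 ± 0.10 (adjusted p = 8.87e-05), from 5.79 to 7.25 in MOLM13. ID1 rose by 0.57 ± 0.10 (adjusted p = 1.22e-04), called up in SKM1 (1.30) and MOLM13 (1.16). In SKM1, the line with the largest TGFBI change, SKIL, SMAD7 and ID1 were at 1.00, 0.75 and 1.30, and all 3 passed. They also passed in MOLM13, at 0.92, 1.46 and 1.16. In SKNO1, where TGFBI changed at least 20.6-fold, they were at 0.30, 0.35 and 0.55, and none of the 3 passed. Nor did any in SHI1, at 0.13, 0.97 and 0.27. A link to the TGFBI change was not tested.

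**Figure D5:**
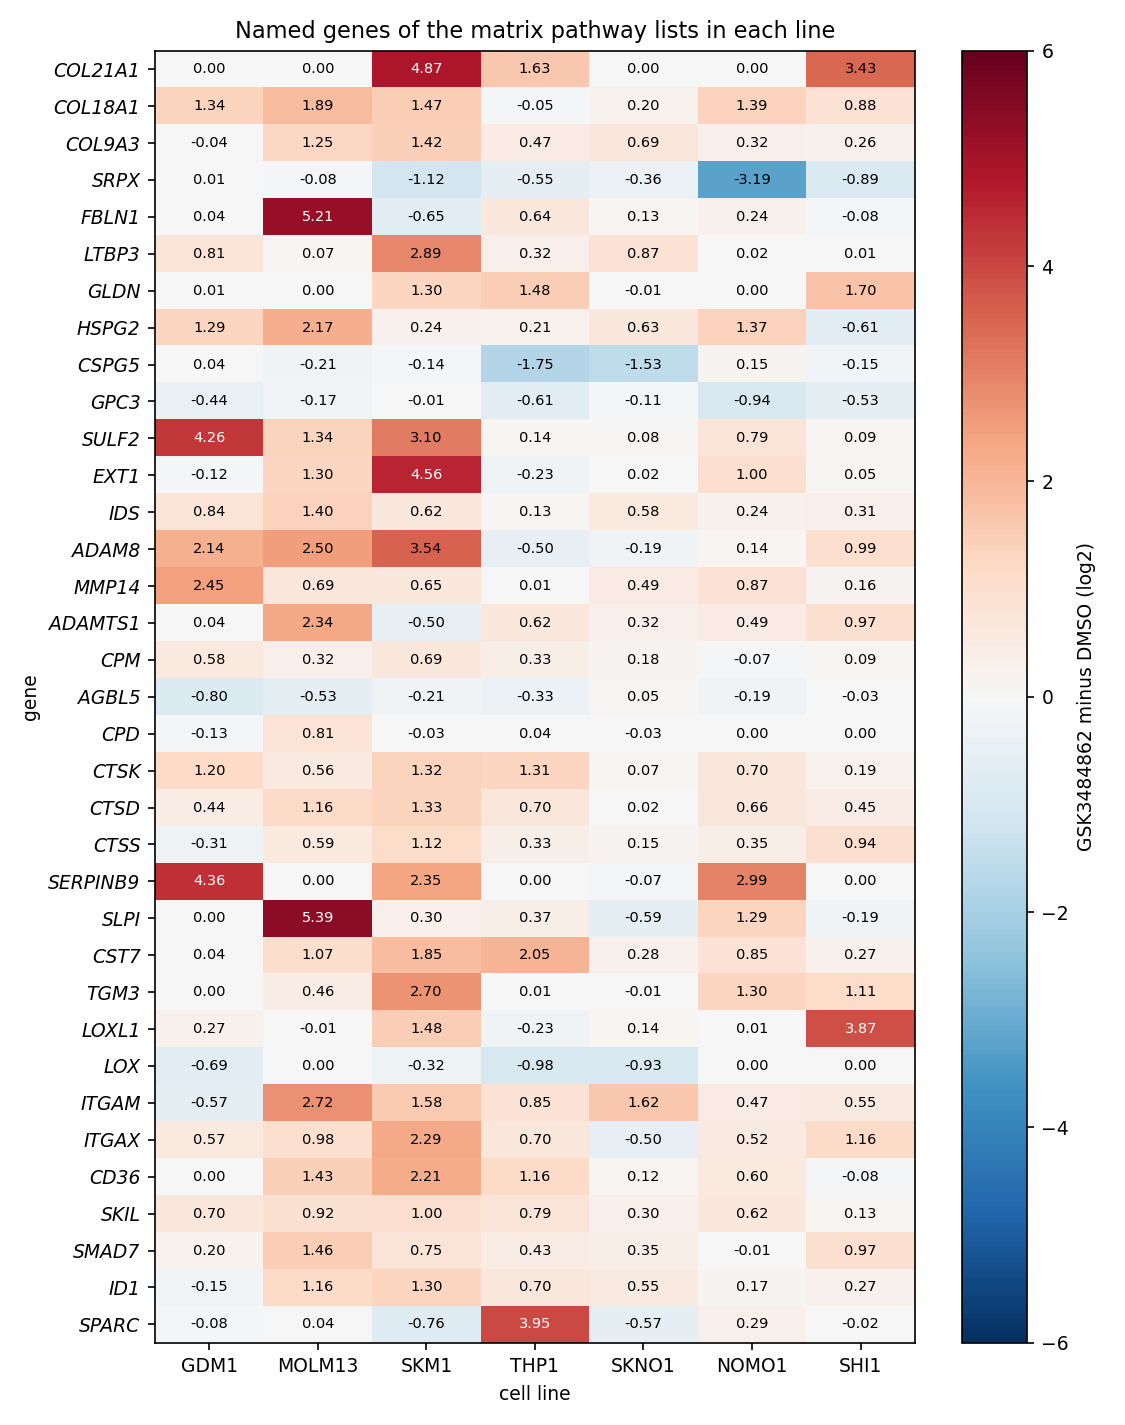
GSK3484862 minus DMSO in log2 (colour and printed value) for the 35 named pathway genes (y axis) in the 7 cell lines (x axis), each value a difference of 2-array means. The largest values are in single lines, as 5.39 for SLPI and 5.21 for FBLN1 in MOLM13 and 4.87 for COL21A1 in SKM1, while SKIL and IDS have positive values in all 7 lines.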

How the data were processed

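The authors deposited 1 table of log2 values per probe set and array. Its background correction, summarisation, normalization and filter are stated nowhere in the labels (not given in the sources used here), and the submitters' processing notes name limma with no role. Groups came from the sample labels, which name no batch, so batches were not tested. The table held 27306 probe sets, of which 22580 had 1 gene symbol, 1098 several and 3628 none listed, per the platform annotation, which can be old. The gene table matched 22567 of the first kind. The brightest probe set on average stood for its gene, which gave 11676 genes. Between 288 and 691 probe sets per array lay at the floor of 2.13. The number of arrays limits the precision.

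Changes were fitted with limma 3.58.1 in R 4.3.3 in 1 model of 14 groups (14 residual and 2.28 prior degrees of freedom), with contrasts in each line and their mean, and two-sided p-values with Benjamini-Hochberg adjustment over the 11676 genes. The fit was tested on simulated data. The 6 genes, the pathway lists and the marker lists were chosen with earlier results of these data known. Named were the 6 genes, up to 3 called genes of each of 12 pathway lists with the largest average change, for each line the called pathway gene with the largest change, and for each of the 6 the 3 genes of highest correlation. The lists were collagens, matrix glycoproteins, olfactomedin-domain genes, proteoglycans, heparan sulfate synthesis and turnover, metalloproteinases, metallocarboxypeptidases, serine and cysteine proteases, protease inhibitors, collagen modification, matrix receptors and TGF-beta signalling. The marker lists were haematopoietic (11 of 14 genes measured, 5 up and 2 down on average), fibroblast (2 of 13, 0 up and 0 down, median change 0.04), endothelial (2 of 8, 1 up and 0 down), epithelial (3 of 7, 2 up and 0 down), monocyte and neutrophil granule genes. Beside these counts, 23.2% of all genes were called up on average and 28.6% down. Alternatives were quantile normalization, centring on array medians, a filter on dim genes, the mean of all probe sets, leaving out cross-hybridising probe sets, trend and robust options, a replicate block, each line fitted alone, lines as units, and each line or array left out.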

Additional observations from a re-analysis of the deposited data

Results flagged for a closer look

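Of the 35 named pathway genes 28 changed by different amounts in the 7 lines by limma's F-test of the differences between lines, with a largest adjusted p of 0.0425 among them. The same test called 4378 of all 11676 genes. The values below are the highest minus the lowest change among the lines. The 6 genes the description starts from were not tested.

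Among structural genes this gap was 4.87 for COL21A1, 1.94 for COL18A1, 1.46 for COL9A3, 3.20 for SRPX, 5.86 for FBLN1, 2.88 for LTBP3, 4.71 for SPARC and 1.90 for CSPG5. Among genes of heparan sulfate it was 4.18 for SULF2, 4.79 for EXT1 and 1.27 for IDS. Among proteases it was 4.04 for ADAM8, 2.44 for MMP14, 2.84 for ADAMTS1, 0.85 for AGBL5, 0.94 for CPD, 1.31 for CTSD and 1.43 for CTSS. Among inhibitors and crosslinking enzymes it was 4.43 for SERPINB9, 5.98 for SLPI, 2.01 for CST7, 2.71 for TGM3 and 4.10 for LOXL1. Among receptors and TGF-beta genes it was 3.29 for ITGAM, 2.79 for ITGAX, 2.29 for CD36, 1.47 for SMAD7 and 1.45 for ID1. The widest gaps, in SLPI and FBLN1, have MOLM13 as the highest line. No group held enough arrays for a test of single outlying arrays.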

How the results depend on the processing

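Averages of the 6 genes moved with the lines used, as follows from lines that differ. COL14A1 (2.92) was 2.34 without GDM1, 3.31 without MOLM13, 3.41 without NOMO1 or SHI1, 1.99 without SKNO1 and 3.39 without THP1. CPXM1 (1.81) was 2.07 without GDM1, 2.12 without MOLM13, 2.03 without NOMO1, 1.33 without SHI1 or SKM1 and 2.11 without THP1. OLFML3 (1.84) was 1.16 without MOLM13, 1.34 without NOMO1, 2.15 without SHI1 or SKNO1 and 2.13 without SKM1. TGFBI (2.28) was 1.70 and MMP9 (1.18) 0.93 without SKM1. Of 1176 values of the 6 genes with an array left out, 1152 moved by less than the spread between replicates and 24 by more. Most of them could not move, as the change in a line does not use the arrays of other lines. With lines as units, genes called fell from 2704 to 296 up and from 3335 to 529 down, and pathway genes from 82 to 7 up and from 31 to 1 down, as the spread between lines then sets the error. Each line fitted on its own 4 arrays gave 2349 genes in GDM1 in place of 3940, 2056 in MOLM13 in place of 3394, 53 in SKM1 in place of 3283, 2 in THP1 in place of 1599, and by limma 0 in SKNO1, NOMO1 and SHI1 in place of 710, 1373 and 399, where 2312, 2523 and 2656 had an unadjusted p under 0.05. With 1 array left out the counts ran from 2120 to 3582 in MOLM13, 747 to 1858 in THP1, 368 to 827 in SKNO1, 605 to 1554 in NOMO1 and 196 to 470 in SHI1; the cause was not tested. CPD turned to -0.03 without MOLM13 and SPARC to -0.18 without THP1, each from 1 line. Of the 35 named pathway genes 31 lost their call with lines as units. With the replicate block 89 pathway genes were called up and 34 down, and all 35 kept their call. By line it gave 14 pathway genes down in THP1 in place of 9, 14 up in SKNO1 in place of 9, and 8 up and 2 down in SHI1 in place of 5 and 1. By number, same-numbered arrays deviated together in SKM1, SKNO1 and NOMO1 (correlations of 0.372, 0.391 and 0.309) but not clearly in the other 4 lines (-0.0974 to 0.0856), so the numbers were not taken as pairs.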

Other observations

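Genes on both sides of the TGFBI and MMP9 pathways that the naming rule did not take were looked at after their values were seen. The ligand gene TGFB1 rose by 0.33 ± 0.05 (adjusted p = 4.1e-05) and was above 0 in 6 of 7 lines, from -0.01 in MOLM13 to 0.76 in GDM1. The receptor gene TGFBR2 rose by 0.42 ± 0.05 (adjusted p = 3.46e-06) and was above 0 in 7 of 7 lines, from 0.04 in SKNO1 to 0.85 in MOLM13. TGFBR1 did not keep its call without THP1 (0.07, adjusted p = 0.327). TIMP1 and TIMP2, inhibitors of metalloproteinases including MMP9, rose by 0.23 ± 0.04 (adjusted p = 2.14e-04) and 0.54 ± 0.03 (adjusted p = 2.15e-09). TIMP2 was led by MOLM13 (1.90) and was 0.32 without it. None of these 5 passed with lines as units, where adjusted p ran from 0.0567 for TGFBR2 to 0.404 for TGFBR1.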
